A study of Homo sapiens with 10 samples.

Results

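The genes that carry peptides to the cell surface on MHC class I were followed across 4 sublines of PC3, a human prostate cancer cell line. The set held 9 genes: the class I heavy chains HLA-B, HLA-C, HLA-E and HLA-F, the shared light chain B2M, the peptide transporter subunits TAP1 and TAP2, and the immunoproteasome subunits PSMB8 and PSMB9. They were taken by gene symbol from 23170 genes in the gene tables, of which 21985 lay on chromosomes 1 to 22, X and Y, by a rule that names the symbols and uses no measured value. PC3-Epi (2 samples) was an epithelial subpopulation of PC3 cells carrying luciferase. PC3-EMT14 (3 samples) was a mesenchymal population isolated after PC3-Epi cells had been grown together with macrophages, themselves made from CD14+ monocytes treated with IL4, and then passaged. PC3-EMT14-OVOL1 (3 samples), here the OVOL1 line, and PC3-EMT14-OVOL2 (2 samples), the OVOL2 line, were PC3-EMT14 cells transduced with lentivirus to overexpress OVOL1 or OVOL2, zinc finger repressors known to oppose the epithelial-to-mesenchymal transition, and then selected. Total RNA of the 10 samples was sequenced. Each line was 1 selected population. Its samples were biological replicates per the study, and the labels do not say what separated them.

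In class I presentation, cytosolic proteins are cut by the proteasome, the peptides are pumped into the endoplasmic reticulum by the TAP1-TAP2 transporter, and those that fit are bound by a heavy chain paired with B2M and shown to CD8+ T cells at the surface. In the immunoproteasome, PSMB8, PSMB9 and PSMB10 take the places of the constitutive catalytic subunits PSMB5, PSMB6 and PSMB7. Interferon and NF-kappaB signalling are known to raise the whole set, and loss of class I is a well-known route by which tumors, prostate cancer among them, escape T cells.

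Each line had a single FPKM value per gene in each table, pooled by the authors over its samples (FPKM is a fragment count scaled for transcript length and library size). No spread between samples, no standard error and no test can therefore be given for any value here, the sequencing depth is unknown, and whether a difference exceeds the spread between replicates could not be assessed. A gene was counted as past the threshold when the ratio of 2 lines was at least 2-fold and the higher line reached at least 1 FPKM. In bulk RNA, fewer cells with a high level and less RNA per cell cannot be told apart.

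The promoters of 6 members are shown because they are the members whose windows hold an interferon response core, a motif that interferon-activated factors are known to bind, and 4 of them also hold an NF-kappaB-like motif. The windows are the 250 bases before the RefSeq start site in GRCh38.p14, another build than the hg19 of the expression tables, written in the direction of the gene. Capitals mark matches on either strand to an interferon response core (GAA or GAAA, then 2 bases of any kind, then GAAA) or to an NF-kappaB-like motif (GGG, 2 bases of any kind, T, 2 bases of any kind, CC), and neighbouring matches can overlap.
HLA-B (chr6:31357180-31357429, minus strand): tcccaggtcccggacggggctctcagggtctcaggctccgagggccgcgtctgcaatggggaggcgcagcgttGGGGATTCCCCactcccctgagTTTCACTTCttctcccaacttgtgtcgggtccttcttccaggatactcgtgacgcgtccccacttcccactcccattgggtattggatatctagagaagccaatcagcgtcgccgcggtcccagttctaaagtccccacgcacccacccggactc
HLA-C (chr6:31272093-31272342, minus strand): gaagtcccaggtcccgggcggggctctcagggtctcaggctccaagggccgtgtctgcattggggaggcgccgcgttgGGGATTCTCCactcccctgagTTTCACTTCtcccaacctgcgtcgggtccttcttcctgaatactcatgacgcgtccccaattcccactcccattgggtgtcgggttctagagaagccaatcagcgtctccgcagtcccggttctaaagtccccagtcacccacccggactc
HLA-F (chr6:29723184-29723433, plus strand): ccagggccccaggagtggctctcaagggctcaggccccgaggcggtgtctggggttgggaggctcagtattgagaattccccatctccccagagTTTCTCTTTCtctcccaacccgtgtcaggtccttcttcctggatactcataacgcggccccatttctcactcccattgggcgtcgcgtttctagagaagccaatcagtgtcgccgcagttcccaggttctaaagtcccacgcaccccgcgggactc
B2M (chr15:44711267-44711516, plus strand): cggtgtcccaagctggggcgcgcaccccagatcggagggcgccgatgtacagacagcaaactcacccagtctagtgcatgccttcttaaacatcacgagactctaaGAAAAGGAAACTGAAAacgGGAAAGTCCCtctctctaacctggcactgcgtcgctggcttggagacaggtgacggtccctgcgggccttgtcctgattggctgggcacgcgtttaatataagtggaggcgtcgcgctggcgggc
TAP1 (chr6:32853705-32853954, minus strand): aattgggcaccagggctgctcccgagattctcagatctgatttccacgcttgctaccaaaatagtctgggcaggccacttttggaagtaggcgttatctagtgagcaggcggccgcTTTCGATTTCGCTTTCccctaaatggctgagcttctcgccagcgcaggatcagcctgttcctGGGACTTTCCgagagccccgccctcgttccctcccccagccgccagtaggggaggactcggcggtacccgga
TAP2 (chr6:32838740-32838989, minus strand): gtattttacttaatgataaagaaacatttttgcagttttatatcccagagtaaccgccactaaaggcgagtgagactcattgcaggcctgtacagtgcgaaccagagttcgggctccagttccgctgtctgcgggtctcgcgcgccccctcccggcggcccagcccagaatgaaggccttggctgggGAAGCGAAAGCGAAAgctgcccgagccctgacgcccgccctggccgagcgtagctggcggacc
The table held windows for 8 of the 9 members, 10 windows in all, since TAP1 and PSMB8 had 2 each. HLA-E had no entry. An interferon response core was present in 6 of the 10 windows, those printed here, beside 9.08% of 35116 windows of the same length over all genes. An NF-kappaB-like motif was present in 4 windows, those of HLA-B, HLA-C, B2M and TAP1, beside 19.7% of all windows. In HLA-B the core read TTTCACTTC at positions -155 to -147 from the start site, and the same letters stood at -151 to -143 in HLA-C. Both matched only the shorter form of the core, the one that begins with GAA and not GAAA. The windows of HLA-B and HLA-C were 89.0% identical in a global alignment, HLA-B and HLA-F were 80.4% identical, and HLA-B and B2M 50.9%. HLA-F carried a core at -156 to -147 and no match to the NF-kappaB-like motif. TAP1 carried overlapping cores from -134 to -119, and its start site and that of PSMB9 faced away from each other with 487 bases between them. The windows of PSMB8 and PSMB9 held neither motif. The cores of TAP1 lay between its start site and that of PSMB9, beyond the 250 bases of the PSMB9 window. The OVOL2 consensus had no match in any of the 10 windows, beside 0.877% of all windows, which says nothing about binding of the factor. A match is a run of letters and not a measured binding site.

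In the expression tables, 8 members lay in the MHC region of chromosome 6 and B2M on chromosome 15 (hg19 coordinates, gene models with all their exons). HLA-F lay at chr6:29691117-29716826 on the plus strand, HLA-E at chr6:30457183-30461982 on the plus strand, HLA-C at chr6:31236529-31239855 on the minus strand and HLA-B at chr6:31321649-31324989 on the minus strand. TAP2 lay at chr6:32789610-32806547 on the minus strand, PSMB9 at chr6:32821938-32827628 on the plus strand and B2M at chr15:45003685-45010357 on the plus strand. TAP1 and PSMB8 were listed with the same locus, chr6:32808494-32821748, on the minus strand, within which the annotation places PSMB8 at 32808494-32812456 and TAP1 at 32812986-32821593. The annotation that gave the strands begins PSMB9 at 32811913 on the other strand, across TAP1. The gene models behind the FPKM values start PSMB9 at 32821938, beyond the locus of TAP1 and PSMB8, and do not overlap it. Reads from a longer PSMB9 transcript could be credited to TAP1 or PSMB8, and the values of all of them are uncertain to that extent. The 8 chromosome 6 members also had 51 rows on alternative haplotype sequences of the region, all listed at 0 FPKM. The class I heavy chain genes are near-identical over long stretches and highly polymorphic, so that reads can be split or lost between them, and their levels relative to each other are uncertain.

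The lines were checked against the genes that define them. The OVOL1 line held 11.3 FPKM of OVOL1 beside 0.0238 FPKM in its parent, and the OVOL2 line 831 FPKM of OVOL2 beside 0.370 FPKM. PC3-Epi held 4.25 FPKM of OVOL1 and 9.91 FPKM of OVOL2. CDH1, the epithelial cadherin, ran from 1.00 FPKM in PC3-EMT14 through 16.2 FPKM (OVOL1 line) and 39.2 FPKM (OVOL2 line) to 50.6 FPKM in PC3-Epi. Of 14 macrophage markers, CD68 was the only one to reach 1 FPKM in any line. It was higher in PC3-EMT14 (54.1 FPKM) than in PC3-Epi (13.2 FPKM). CD68 measured 51.2 FPKM in the OVOL1 line and 57.8 FPKM in the OVOL2 line. The others summed to between 0.696 and 0.875 FPKM in each line, none of them exceeded 0.233 FPKM, and TYROBP was listed at 0 in every line but PC3-EMT14.

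All 9 members were expressed in every line. The lines stand in separate tables, each normalized on its own, and the same line differed between tables by a median ratio of 1.00 to 1.03, so levels are set side by side here and each ratio is taken within a table. In PC3-EMT14 the levels ran from 3.46 FPKM for HLA-F to 773 FPKM for B2M, and B2M stood among the most abundant transcripts, with 47 genes above it. The OVOL2 line held the highest level of 7 members and PC3-Epi that of TAP2 and PSMB8. The lowest level was in PC3-EMT14 for 5 members, in PC3-Epi for B2M, TAP1 and PSMB9, and in the OVOL1 line for HLA-E. Between the highest and the lowest line the ratio ran from 1.29 for HLA-E to 2.36 for HLA-F, and without a spread between samples neighbours in these orders cannot be separated.

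**Figure D1:**
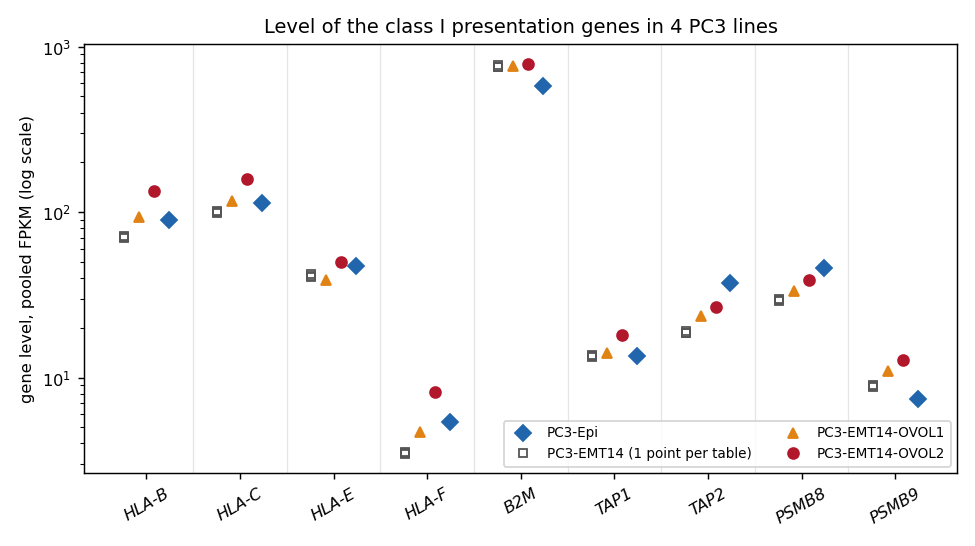
Gene level in FPKM (log scale) of the 9 class I presentation genes in the 4 PC3 lines, with 1 pooled value per point and PC3-EMT14 drawn from each of its 3 tables. HLA-B and HLA-F are highest in the OVOL2 line and lowest in PC3-EMT14, while B2M is near level in PC3-EMT14 and both OVOL lines and lowest in PC3-Epi.

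Of the lines set against PC3-EMT14, only in the OVOL2 line did all members lean the same way. Each of the 9 was higher in the OVOL2 line than in its parent, beside 44.01% of 12301 genes above 1 FPKM. The members' median log2 ratio was 0.52 beside -0.04 over those genes. The members' log2 ratios ran from 0.08 for B2M to 1.24 for HLA-F. HLA-F was the member past 2-fold, beside 7.35% of all genes past 2-fold in either direction and 4.42% past it upward. At 1.5-fold, 3 members passed upward, HLA-F, HLA-B and HLA-C, beside 8.12% of all genes.

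Among the heavy chains, HLA-B and HLA-C are classical chains that present peptides to T cells. HLA-B measured 69.9 FPKM in PC3-EMT14 and 135 FPKM in the OVOL2 line, a ratio of 1.93 (log2 0.95) that 4.79% of genes equalled or exceeded. It measured 93.8 FPKM in the OVOL1 line and 89.2 FPKM in PC3-Epi, so the OVOL2 line stood above the other 3. HLA-C measured 98.5 FPKM in PC3-EMT14 and 158 FPKM in the OVOL2 line, a ratio of 1.60, with 116 FPKM in the OVOL1 line and 114 FPKM in PC3-Epi. HLA-C followed the same order of lines as HLA-B, with smaller steps.

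HLA-F, a nonclassical chain, had the lowest level of the set and the largest ratio. It measured 3.46 FPKM in PC3-EMT14, 4.71 FPKM in the OVOL1 line, 8.16 FPKM in the OVOL2 line and 5.42 FPKM in PC3-Epi, and the ratio of the OVOL2 line to PC3-EMT14 was 2.36. HLA-E, a nonclassical chain known to engage inhibitory receptors of natural killer cells, differed least. It measured 40.7 FPKM in PC3-EMT14, 38.8 FPKM in the OVOL1 line, 49.7 FPKM in the OVOL2 line and 47.5 FPKM in PC3-Epi. The largest ratio to PC3-EMT14 for HLA-E was 1.22, in the OVOL2 line.

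B2M, the light chain without which heavy chains are not held at the surface, did not follow the heavy chains. It measured 749 FPKM in PC3-EMT14, 768 FPKM in the OVOL1 line and 791 FPKM in the OVOL2 line, ratios of 1.02 and 1.06 in the OVOL lines. In PC3-Epi it measured 580 FPKM beside 773 FPKM for PC3-EMT14 in the same table, a ratio of 0.751. The 4 heavy chains summed to 213 FPKM in PC3-EMT14 and 350 FPKM in the OVOL2 line, and to 256 FPKM in PC3-Epi. The level of B2M over that sum was thus 3.52 in PC3-EMT14, 3.03 in the OVOL1 line, 2.26 in the OVOL2 line and 2.27 in PC3-Epi. The light chain exceeded the summed heavy chains in every line, by least in the OVOL2 and PC3-Epi lines, which came to a like ratio through a higher sum in the first and a lower B2M together with a higher sum in the second.

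The transporter subunits stood closer together with OVOL2 than in PC3-Epi. TAP1 measured 13.3 FPKM in PC3-EMT14, 14.1 FPKM in the OVOL1 line, 18.1 FPKM in the OVOL2 line and 13.5 FPKM in PC3-Epi, in whose own table PC3-EMT14 had 13.7 FPKM. TAP2 measured 18.5 FPKM in PC3-EMT14, 23.6 FPKM in the OVOL1 line, 26.5 FPKM in the OVOL2 line and 37.1 FPKM in PC3-Epi. With OVOL2 the ratios to PC3-EMT14 were 1.36 for TAP1 and 1.43 for TAP2. In PC3-Epi they were 0.982 and 1.95, and the level of TAP2 over that of TAP1 was 2.75 beside 1.39 in PC3-EMT14. The higher TAP2 in PC3-Epi was thus not matched by its partner subunit.

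The immunoproteasome subunits repeated that split. PSMB8 measured 29.1 FPKM in PC3-EMT14, 33.3 FPKM in the OVOL1 line, 38.9 FPKM in the OVOL2 line and 46.0 FPKM in PC3-Epi. PSMB9 measured 8.77 FPKM in PC3-EMT14, 10.9 FPKM in the OVOL1 line, 12.7 FPKM in the OVOL2 line and 7.43 FPKM in PC3-Epi. Both were higher with OVOL2, by ratios of 1.34 and 1.45, while in PC3-Epi PSMB8 was higher than in PC3-EMT14 by a ratio of 1.53 and PSMB9 lower, at 0.820. TAP1 and PSMB9, which share the divergent promoter region described above, were the members other than B2M that were lower in PC3-Epi than in PC3-EMT14, TAP1 by a ratio close to 1.

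Set against the constitutive subunits they replace, the immunoproteasome subunits were minor in every line. The level of PSMB8 over PSMB5 was 0.137 in PC3-EMT14, 0.160 in the OVOL1 line, 0.212 in the OVOL2 line and 0.260 in PC3-Epi. That of PSMB9 over PSMB6 was 0.0441, 0.0462, 0.0543 and 0.0371 in the same order of lines. The third pair, PSMB10 over PSMB7, gave 0.0701, 0.0975, 0.101 and 0.113. PSMB8 and PSMB10 had their highest ratio in PC3-Epi and PSMB9 its lowest there.

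**Figure D2:**
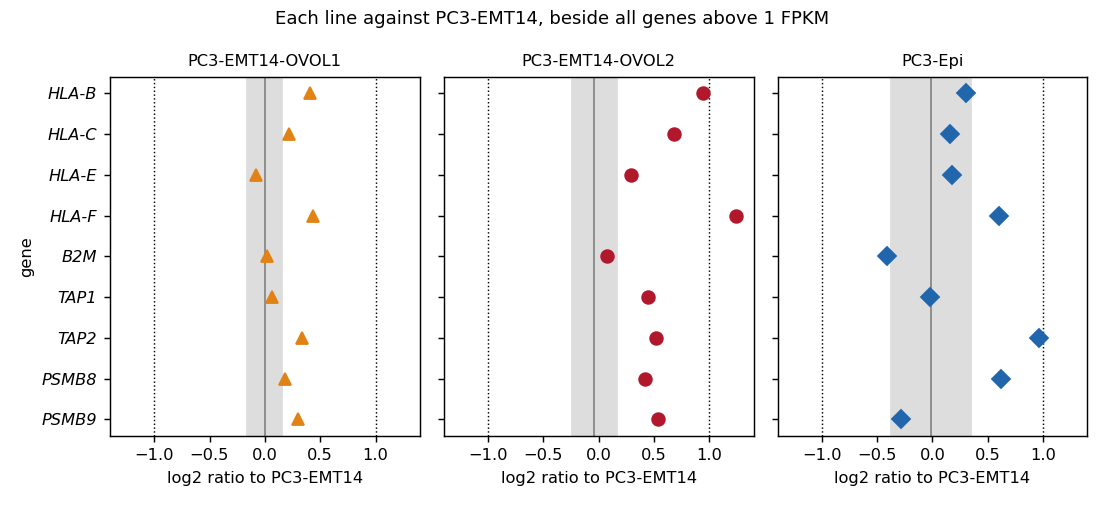
Log2 ratio of the gene level in each line to PC3-EMT14 for the 9 genes. The gray band spans the quartiles and the gray line the median of all genes above 1 FPKM, and dotted lines mark 2-fold. In the OVOL2 line, 8 genes lie above the band and B2M inside it. HLA-F is past the 2-fold line.

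The OVOL1 line gave smaller differences. In the OVOL1 line, 8 members were higher than in PC3-EMT14, beside 49.7% of 12191 genes, and HLA-E was lower. The members' median log2 ratio was 0.22 beside 0.00 over those genes. None of the 9 passed 2-fold, beside 3.97% of all genes in either direction, and none passed 1.5-fold, beside 8.80%. HLA-F (log2 0.43), HLA-B (log2 0.41) and TAP2 (log2 0.34) had the largest ratios, and B2M (log2 0.02) and TAP1 (log2 0.06) the smallest positive ones. In the table that sets the OVOL lines against each other, all 9 members were higher with OVOL2, beside 42.5% of 12182 genes. The members' median log2 ratio was 0.37 beside -0.04 over those genes. No member passed 2-fold, beside 3.08% of all genes in either direction. HLA-F came nearest at a ratio of 1.75 and was the member past 1.5-fold upward, beside 4.74% of all genes. The OVOL2 line also held 831 FPKM of its transgene against 11.3 FPKM of OVOL1 in the OVOL1 line, so the factor and its level cannot be told apart. The study also used different lentiviral constructs for OVOL1 and OVOL2. The labels name no empty-vector line, so transduction and selection cannot be told apart from either factor in the comparisons with PC3-EMT14.

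PC3-Epi, the epithelial starting line, did not stand above PC3-EMT14 across the set. Of the members, 6 were higher in PC3-Epi, beside 49.1% of 12434 genes, and 3 lower (B2M, TAP1 and PSMB9). The members' median log2 ratio was 0.17 beside -0.01 over those genes. No member passed 2-fold, beside 15.7% of all genes in either direction. TAP2, PSMB8 and HLA-F passed 1.5-fold upward, beside 15.2% of all genes. Of the macrophage markers CD68 also differed between these lines, as given above, while the others were near 0 in both, and its part in these ratios was not tested. The 3 comparisons against PC3-EMT14 share its libraries, so a shift in that line would enter all of them.

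The isoforms of the 3 members with more than 1 listed transcript showed where the gene levels differed. For TAP2, the transcript TCONS_00028980 measured 9.69 FPKM in PC3-EMT14 and 16.9 FPKM in the OVOL2 line, while TCONS_00028981 measured 8.79 and 9.65 FPKM. The first transcript made up 52.4% of TAP2 in PC3-EMT14, 52.8% in the OVOL1 line, 63.6% in the OVOL2 line and 47.1% in PC3-Epi. In PC3-Epi the second transcript was the higher, at 19.6 FPKM against 9.07 FPKM in PC3-EMT14, a ratio of 2.17. The first transcript was also higher in PC3-Epi than in PC3-EMT14, by a ratio of 1.75, close to its ratio of 1.74 in the OVOL2 line. The second transcript had a ratio of 1.10 in the OVOL2 line. PC3-Epi and the OVOL2 line thus had like ratios to PC3-EMT14 for the first transcript and differed in the second.

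For HLA-F, TCONS_00027993 made up 80.8% of the gene in PC3-EMT14, 85.6% in the OVOL1 line, 85.1% in the OVOL2 line and 77.6% in PC3-Epi. It measured 2.79 FPKM in PC3-EMT14 and 6.94 FPKM in the OVOL2 line, a ratio of 2.48. For PSMB8, TCONS_00028982 made up 77.2% in PC3-EMT14 and between 75.3% in PC3-Epi and 81.2% in the OVOL2 line. Isoform levels are estimates that divide shared reads between transcripts, and their error was not analysed here.

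**Figure D3:**
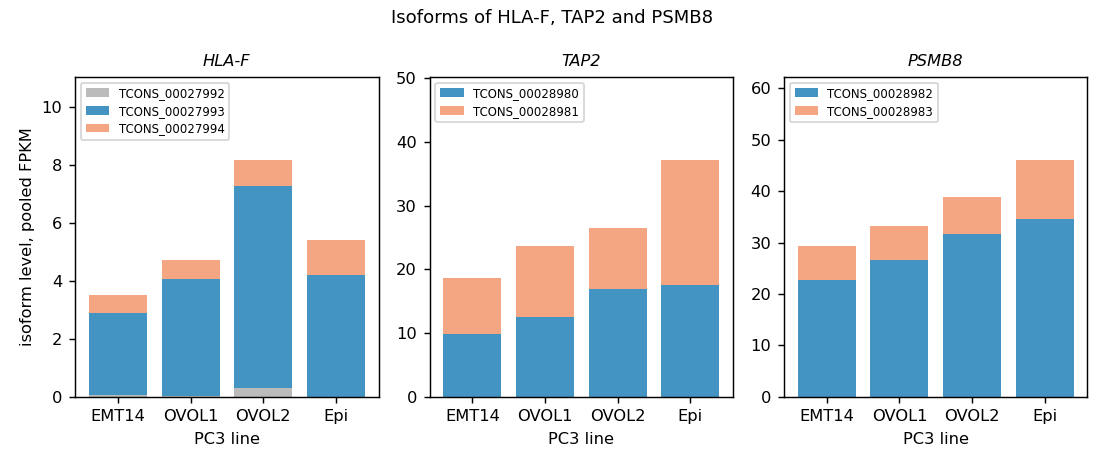
Isoform levels in FPKM, stacked to the gene level, of HLA-F, TAP2 and PSMB8 in the 4 lines (PC3-EMT14 from its table with the OVOL1 line). TCONS_00028980 makes up 63.6% of TAP2 in the OVOL2 line and TCONS_00028981 more than the other transcript in PC3-Epi.

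The other class I genes gave a mixed pattern. Of 11 listed, 8 were above 1 FPKM in each comparison. With OVOL2, 7 of the 8 were higher than in PC3-EMT14 (median log2 0.36) and HLA-G passed 2-fold, at 5.24 FPKM beside 2.37 FPKM. HLA-H, a class I pseudogene, had a ratio of 1.47 with OVOL2. In PC3-Epi, FCGRT, the heavy chain of the neonatal Fc receptor, was at 21.1 FPKM beside 50.1 FPKM. It was past 2-fold lower, beside 8.34% of all genes in that direction.

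No loading chaperone and 1 trimming gene passed 2-fold. Over all genes, 3.08% to 15.7% passed it in either direction, depending on the comparison, so counts this small say little about these roles. Of the loading chaperones, 5 of 6 were above 1 FPKM and none passed 2-fold in any comparison, and their median log2 ratio with OVOL2 was -0.16. TAPBP, the tapasin that bridges TAP and the heavy chain, was the 1 chaperone of those above 1 FPKM that was higher with OVOL2, at a ratio of 1.15 to its 20.9 FPKM in the parent. Of 7 peptide trimming genes, ERAP2, an aminopeptidase of the endoplasmic reticulum, was the only one past 2-fold, at 2.62 FPKM in PC3-Epi beside 7.41 FPKM in PC3-EMT14. ERAP1, its paralog, measured 16.7 FPKM with OVOL2 beside 11.3 FPKM, and 6.69 FPKM in PC3-Epi beside 11.7 FPKM.

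The constitutive core of the proteasome stayed near level with OVOL2. Of 4 other inducible proteasome genes, PSMB10 and PSME2 had ratios with OVOL2 like those of the members PSMB8 and PSMB9, and the others did not. None of the 3 constitutive catalytic subunits and none of 11 other core subunits passed 2-fold in any comparison. Over all genes, 3.08% to 15.7% did so in either direction, depending on the comparison. The 11 core subunits had a median log2 ratio of -0.01 (OVOL2 line), 0.09 (OVOL1 line) and -0.22 (PC3-Epi). None of the 4 other inducible proteasome genes passed 2-fold, beside the same shares. Among them PSMB10, the third immunoproteasome subunit, measured 20.9 FPKM with OVOL2 beside 14.1 FPKM in the parent, and PSME2, a subunit of the proteasome activator, 57.6 beside 42.8 FPKM. PSME1 had a ratio of 1.07 with OVOL2, and the remaining gene was lower, at a log2 ratio of -0.15.

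Of 16 regulators of class I transcription, 15 were above 1 FPKM. NLRC5, the class I transactivator, was under 1 FPKM in every line, at 0.453 FPKM in PC3-EMT14, 0.420 FPKM with OVOL1, 0.536 FPKM with OVOL2 and 0.268 FPKM in PC3-Epi. With OVOL2, 2 regulators were past 2-fold higher, beside 4.42% of all genes. IRF9, a subunit of the complex that carries type I interferon signals, measured 28.9 FPKM in the OVOL2 line beside 11.1 FPKM in its parent, and RELB, an NF-kappaB subunit, 7.71 beside 3.24 FPKM. With OVOL1 none passed 2-fold, beside 3.97% of all genes in either direction, IRF9 being at 10.2 FPKM. In PC3-Epi IRF9 was the regulator past 2-fold higher, beside 7.37% of all genes, at 24.6 beside 11.4 FPKM, and RELB was at 3.19 beside 3.35 FPKM. IRF1, a direct activator of class I promoters, was at 3.12 FPKM in PC3-EMT14, 4.79 FPKM with OVOL2 and 4.54 FPKM in PC3-Epi. None of the 4 interferon gamma receptor and kinase genes passed 2-fold in any comparison, beside 3.08% to 15.7% of all genes by comparison.

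Interferon-stimulated genes outside the class I pathway differed by more than the members did. Of 11 listed, 5 were past 2-fold higher with OVOL2 (IFI6, IFI27, MX1, OAS1 and OAS2) and none lower, beside 4.42% of all genes upward, with a median log2 ratio of 0.98. In PC3-Epi 7 were past 2-fold higher and GBP2 lower, with a median of 1.63, beside 7.37% and 8.34% of all genes in those directions. With OVOL1, OAS1 was past 2-fold higher, beside 2.43% of all genes, but 8 of the 10 genes above 1 FPKM were lower. Of all genes, 49.7% were higher there. The median of the listed genes was -0.33. For OAS1, a sensor of double-stranded RNA, the OVOL1 line held 14.2 FPKM beside 7.07 FPKM in its parent, and the ratio to PC3-EMT14 was 5.51 in the OVOL2 line and 5.12 in PC3-Epi. MX1, an antiviral GTPase, was at 2.44 FPKM in the parent, 2.42 FPKM in the OVOL1 line, 9.54 FPKM in the OVOL2 line and 14.1 FPKM in PC3-Epi. The interferon-stimulated genes had their highest median in PC3-Epi. The members' medians in PC3-Epi and the OVOL1 line, log2 0.17 and 0.22, were close to each other and below the 0.52 of the OVOL2 line. Whether the members and the interferon-stimulated genes are linked was not tested.

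**Figure D4:**
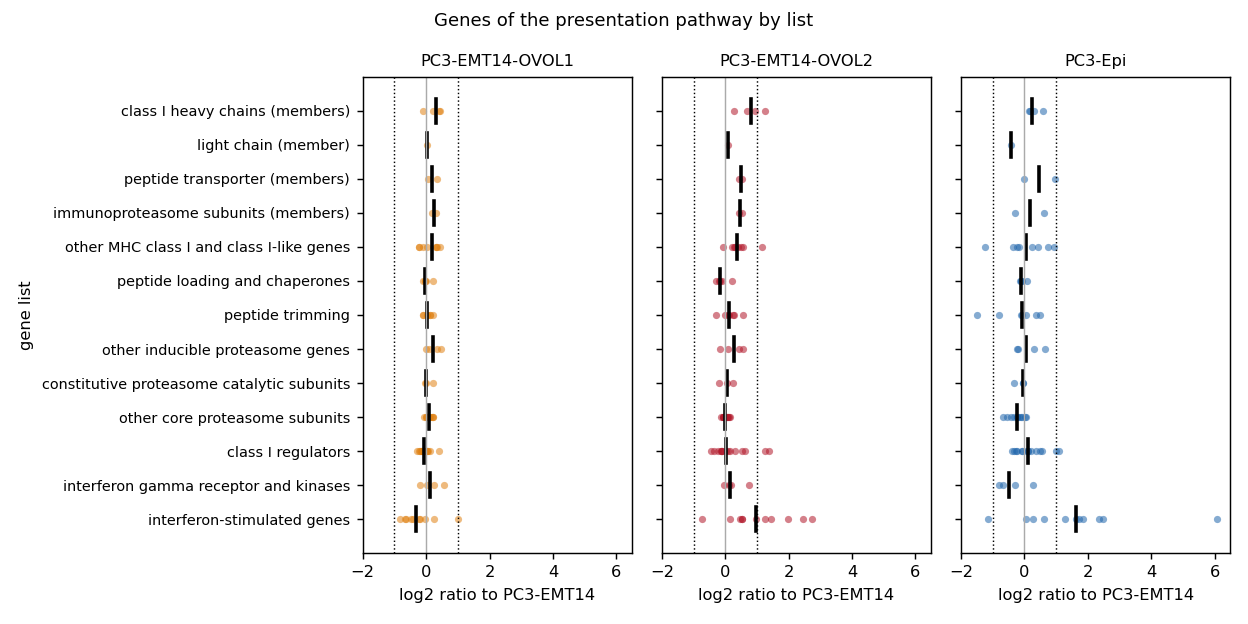
Log2 ratio of the gene level to PC3-EMT14 in each line for the members by role and for the other lists of the pathway. Each point is a gene above 1 FPKM, black bars are list medians and dotted lines mark 2-fold. The interferon-stimulated genes have medians of -0.33 (OVOL1 line), 0.98 (OVOL2 line) and 1.63 (PC3-Epi), and the core proteasome lies near 0 with OVOL2.

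MHC class II genes were low, with 2 of 12 at most above 1 FPKM in a comparison. The neighbours of the members on chromosome 6 did not share the members' pattern. Between the first and the last member, from 29691117 to 32827628 in hg19, 76 other genes were above 1 FPKM in the comparison of the OVOL2 line with PC3-EMT14. Only the members were left out, so other class I genes within the window were counted as neighbours. Of these 76 neighbours, 36 were higher, beside 44.01% of all genes. Past 2-fold, 7 were higher, beside 4.42% of all genes, and none lower. The neighbours' median log2 ratio was -0.02 beside 0.52 for the members. In the OVOL1 line, 26 of 73 were higher, beside 49.7% of all genes, with a median of -0.06 beside 0.22 for the members. In PC3-Epi the reverse held: 66 of 80 neighbours were higher, beside 49.1% of all genes, 15 of them past 2-fold, beside 7.37% of all genes, and none past 2-fold lower, and their median of 0.37 exceeded the 0.17 of the members.

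The profile of the members was not theirs alone. Over the 9483 genes with at least 5 FPKM in a line, the genes nearest to the members' median profile over the 3 ratios to PC3-EMT14 included FLII, SYNGR2, LENG1 and CLDN12, at Euclidean distances of 0.053 to 0.076 on the log2 scale. The members themselves lay 0.160 to 0.860 from that profile, and 1199 genes lay as near to it as the median member.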

How the data were processed

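RNA from 10 samples of 4 PC3 lines was sequenced by the authors as paired reads, aligned with TopHat to the UCSC hg19 transcriptome, and summarized with Cuffdiff. The deposited values used here are FPKM, 1 value per gene or isoform and line in each of 4 comparisons, pooled over the samples by the authors with multi-mapped read weighting, upper-quartile normalization and bias correction. Upper-quartile scaling sets the level of a line relative to its upper expressed genes, and tables were normalized separately, so ratios were formed only within a table. The same line differed between tables by a median ratio of 1.00 to 1.03. The columns of the authors' own comparisons (log2 fold change, test statistic, p-value, q-value, status and significance) were not used. No columns of per-sample values were left unmapped.

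Ratios were computed without a pseudocount with pandas 2.3.3 and numpy 2.4.6 under Python 3.11.15. A gene past the threshold had a ratio of at least 2-fold with at least 1 FPKM in the higher line. The background was all genes on chromosomes 1 to 22, X and Y at or above that floor. Counting was tested on simulated data. Strands came from the GENCODE annotation of the same build. Promoter windows of 250 bases and motifs were read from RefSeq sequences of GRCh38.p14, and windows were aligned globally with Biopython 1.88 (match 1, mismatch -1, gap opening -2, gap extension -1). The 9 members, all gene lists and the motifs were chosen with earlier results of these data known. All 9 members were named. Of each of 16 lists, genes past 2-fold in any comparison and up to 3 others in list order could be named, and those given are a part of them. Genes with the nearest profiles were named by rank, and 2 genes are not reported here. Depth is unknown, and no interval can be given.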

Additional observations from a re-analysis of the deposited data

How the results depend on the processing

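No paired analysis was possible because the deposited values are pooled over the samples of a line, and for the same reason no sample could be left out in turn. At a 1.5-fold threshold, 3 members passed in PC3-Epi and 3 in PC3-EMT14-OVOL2, each against PC3-EMT14, and 1 in PC3-EMT14-OVOL2 against PC3-EMT14-OVOL1. At 4-fold, 0 members passed in PC3-EMT14-OVOL2 against PC3-EMT14. These counts differ by construction of the threshold. A floor of 5 FPKM, no floor, and a pseudocount of 1 FPKM left the number of members past 2-fold as it was in each comparison. A pseudocount of 1 FPKM moved 3 of the 36 member ratios by over 0.1 on the log2 scale, by 0.20 at most. Centring on the median of all genes moved none by more than 0.04. Adding the haplotype rows, summing isoforms, and dividing the ratios to PC3-EMT14 in place of the direct comparison of the OVOL lines moved none by more than 0.1. No member ratio changed sign under these settings. Levels near 1 FPKM are the least certain, and HLA-F is the member closest to that floor.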
